A study of Gallus gallus with 6 samples.

Results

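Carrier proteins made by the liver bring vitamins and hormones to the egg yolk, and 6 genes that encode such carriers were followed here in the liver of juvenile and laying hens. The genes were taken by name from the deposited expression table: RD (riboflavin-binding protein), TCN2, GC, ALB, TTR and RBP4, which are 6 of its 14078 genes. The seventh name looked for, RBP4A, was on no gene of the table, and current chicken annotation gives that symbol to the gene named RBP4 here. Liver RNA was sequenced from 6 female hens of a single strain of the Lushi green shell chicken, a Chinese domestic breed, with 1 library per hen. The L20 group was 3 juvenile hens of 20 weeks, and the L30 group was 3 laying hens of 30 weeks. No treatment or allele is given for either group. The hens of the groups differ in age and in laying at once, so that these cannot be told apart, and the labels give no batch or date.

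A growing yolk is filled from the blood. Under estrogen the liver of the laying hen secretes vitellogenin and very low density lipoprotein, which a receptor on the oocyte takes up, and small carriers bring vitamins and hormones along with them. Riboflavin-binding protein is the best known of these in the hen: birds that lack it lay eggs short of riboflavin, in which the embryos die. Transcobalamin (TCN2) carries vitamin B12, the vitamin D-binding protein (GC) carries vitamin D and its hydroxylated forms and also binds actin, and retinol-binding protein 4 (RBP4) carries retinol. RBP4 circulates bound to transthyretin (TTR), which itself carries thyroid hormone. Albumin (ALB), the main protein of plasma, carries fatty acids and many hormones, and is also found in the yolk.

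The values are FPKM, which the paper gives as reads scaled by transcript length and by the total mapped reads. Levels of different genes can be set side by side as far as their exon models hold, which was not checked. Where 3 values of a group are given, they belong to its hens 1, 2 and 3 in that order. Recovered from the deposited scaled counts, the reads on genes numbered 13764705 to 21570436 per hen, and the median FPKM was 2.97 to 3.32. Sequencing was paired-end, so that a recovered read is a unit of the deposited count and may stand for a pair. From hen to hen the FPKM per recovered read went with the factor per library of the deposited counts, and not with the total of reads. That factor made 1 read worth 0.771 to 1.45 in the deposited counts. The 9732 genes whose mean FPKM reached 1 were compared between the groups with limma on log2(FPKM + 1), and log2 fold changes below are on that scale, on which changes at low FPKM come out too small. A DE gene had an unadjusted p of 0.05 or less. For an SDE gene the Benjamini-Hochberg adjusted p was at most 0.05, and the group means differed by a ratio reaching 2, or 0.5 when lower. Each limma p sets the difference against the spread among 3 hens a group, which limma draws toward the spread fitted over all genes tested. An exact permutation test over 3 hens against 3 cannot go below 0.1 (two-sided).

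Of the 6 carrier genes, 3 were SDE genes higher in laying hens: RD, TCN2 and GC. Among all genes tested 1.82% met that rule in the same direction. Tested as recovered reads, edgeR called 3 carrier genes by that rule beside 2.63% of all genes, and DESeq2 called 4, ALB being the fourth, beside 3.74%. ALB was a DE gene as well, which makes 4 of 6, beside 11.0% of all genes. For 5 of the 6 genes all 3 laying hens were above the highest juvenile hen, which held for 14.0% of all genes, and TTR was the exception. No carrier gene met either rule in the lower direction in limma, edgeR or DESeq2, which in limma 0.935% of all genes did by the SDE rule and 11.7% by the DE rule.

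**Figure D1:**
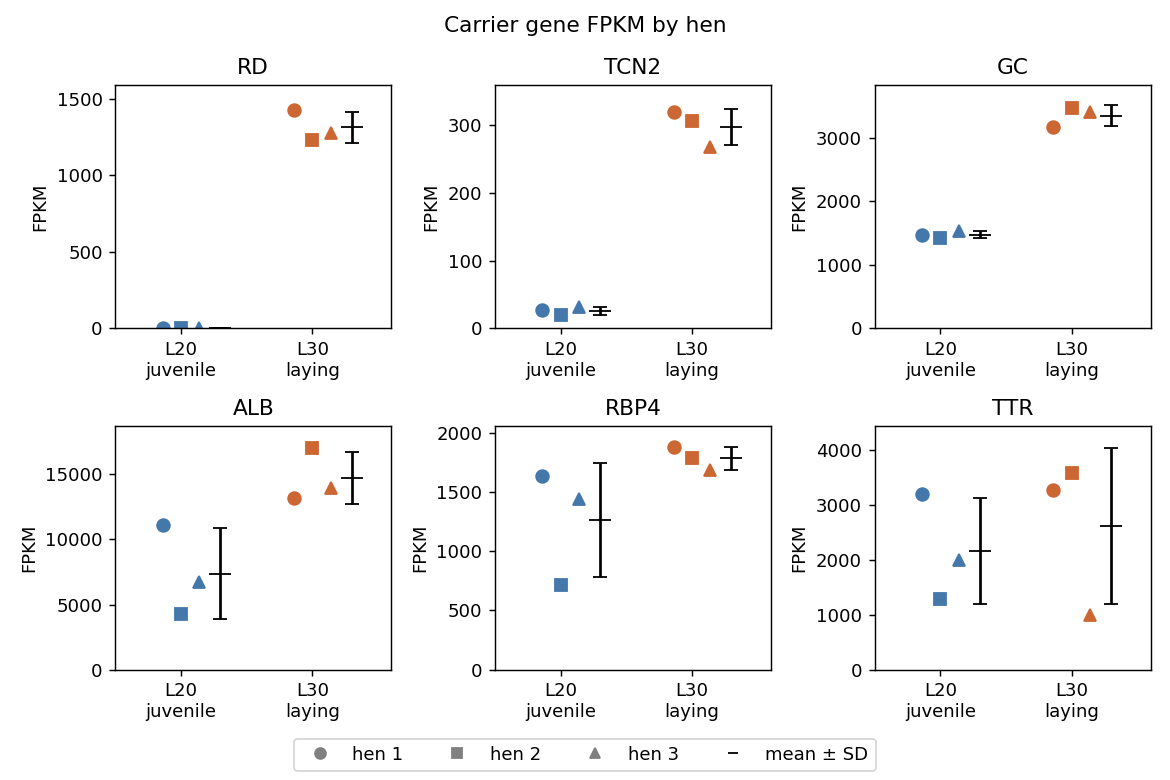
FPKM of the 6 carrier genes in each hen, on linear axes from 0, with circles, squares and triangles for hens 1, 2 and 3 of each group and bars for the mean ± SD (n = 3). The groups are apart in every panel but that of TTR, where L30 hen 3 is the lowest of the 6 hens.

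RD, which encodes the riboflavin carrier, was almost silent in juvenile hens and one of the abundant liver genes in laying hens. Its gene lies on chromosome 8 (galGal4 chr8:20142536-20153680, ENSGALG00000010293) and is described in the table as retbindin. RD had 2.36, 1.22 and 2.52 FPKM in L20, and 1429, 1230.1 and 1279 FPKM in L30. The groups were far apart, and the juvenile hens were all close to the FPKM minimum. In recovered reads the juvenile values rested on 58, 38 and 68 reads, and the laying values on 41418, 20119 and 24334 reads. The mean FPKM was 2.03 ± 0.707 (SD, n = 3) in L20 and 1313 ± 104 (SD, n = 3) in L30, a ratio of 646. The log2 fold change was 8.79 (SE 0.21, 95% interval 8.28 to 9.29, limma adjusted p = 1.32e-05, exact permutation p = 0.1). RD stood at rank 6 of 9732 genes by log2 fold change, and went from rank 8399 to rank 55 of all genes by mean FPKM. Its spread between hens was narrow once the gene was on, with a coefficient of variation of 34.8% in L20 and 7.90% in L30.

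TCN2, the gene of the vitamin B12 carrier, was expressed in every juvenile hen and rose in laying hens. It lies on chromosome 15 (galGal4 chr15:10781347-10783629, ENSGALG00000009536). Its values were 26.5, 20.1 and 31.9 FPKM in L20, and 319, 306 and 268 FPKM in L30. The groups were far from overlapping. The coefficient of variation was 22.5% in L20 and 8.85% in L30, beside medians of 15.3% and 16.6% over all genes tested. The mean went from 26.2 ± 5.88 to 298 ± 26.3 FPKM (SD, n = 3 each), a ratio of 11.4, with a log2 fold change of 3.48 (SE 0.20, 95% interval 3.00 to 3.96, limma adjusted p = 0.00119, exact permutation p = 0.1). TCN2 was at rank 34 of 9732 genes by log2 fold change and moved from rank 1558 to rank 210 by mean FPKM.

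The riboflavin and the vitamin B12 carrier changed places in the order of levels. Within single hens the ratio of RD to TCN2 FPKM was 0.0889, 0.0606 and 0.0790 in L20, and 4.47, 4.02 and 4.76 in L30. Of the 6 genes RD was the lowest in all 3 juvenile hens with TCN2 next, whereas TCN2 was the lowest in all 3 laying hens. The distance from the highest to the lowest carrier gene in a hen was 2676-fold to 4732-fold in L20 and 41.3-fold to 55.6-fold in L30, with ALB at the top in all 6 hens.

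GC, the vitamin D-binding protein gene, was already abundant in juvenile hens and rose in laying hens with little spread between hens. It lies on chromosome 4 (galGal4 chr4:49817084-49822899, ENSGALG00000011612). GC had 1464, 1429 and 1540.4 FPKM in L20, and 3170, 3473 and 3413 FPKM in L30. All laying hens were above all juvenile hens. The mean went from 1478 ± 56.8 to 3352 ± 160.5 FPKM (SD, n = 3 each), a ratio of 2.27. The log2 fold change was 1.18 (SE 0.15, 95% interval 0.81 to 1.55, limma adjusted p = 0.0206, exact permutation p = 0.1). GC was the steadiest of the 6 genes, with a coefficient of variation of 3.84% in L20 and 4.79% in L30, beside medians of 15.3% and 16.6% over all genes tested. Its SDE call was lost when any hen other than L30 hen 3 was left out (adjusted p 0.0549 to 0.0974 without each of these 5 hens) while the log2 fold change stayed between 1.15 and 1.22.

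ALB is a neighbour of GC, a member of the same protein family. It begins 430244 bp beyond the end of GC on chromosome 4 (galGal4 chr4:50253144-50269174, ENSGALG00000020180), with 4 other genes of the table between them. ALB had 11148, 4260 and 6732 FPKM in L20, and 13188, 16991 and 13972 FPKM in L30. The groups did not overlap, but L20 hen 1 came close to the laying hens and L20 hen 2 lay far below them. The mean was 7380 ± 3490 in L20 and 14717 ± 2008 FPKM in L30 (SD, n = 3 each), a ratio of 1.99. The log2 fold change was 1.10 (SE 0.37, 95% interval 0.21 to 1.98) with an unadjusted p of 0.0226 and an adjusted p of 0.151 in limma, so that ALB met the DE rule and not the SDE rule. The DE call held under 14 of 21 alternatives, and was lost without L20 hen 3 or L30 hen 2, with no FPKM filter, with quantile normalisation and in all 3 edgeR fits. Counted on recovered reads with DESeq2 the adjusted p was 0.0407, and with edgeR it was 0.296. Without L20 hen 2 the log2 fold change was 0.76. The highest count values were deposited with 3 significant digits, which touches ALB in L20 hen 1 and in all laying hens.

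Another gene of the albumin family was close to silent in all hens. The unnamed gene ENSGALG00000011658, described in the table as alpha-fetoprotein, begins 8815 bp beyond ALB, and its highest value in the 6 hens was 0.111 FPKM. It was chosen after its values were seen. The ratio of GC to ALB in single hens was 0.131, 0.336 and 0.229 in L20 and 0.240, 0.204 and 0.244 in L30. These ranges overlapped (exact permutation p = 0.8).

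The retinol carrier RBP4 (galGal4 chr6:19941319-19946482, ENSGALG00000006629) was abundant at both ages. Its values were 1635, 717 and 1439 FPKM in L20 and 1879, 1787 and 1687 FPKM in L30. All laying hens lay above all juvenile hens, although L20 hen 1 was within a few percent of L30 hen 3, and after upper-quartile scaling the groups overlapped. The mean went from 1264 ± 483 to 1784 ± 95.7 FPKM (SD, n = 3 each), a ratio of 1.41. This did not pass the test (log2 fold change 0.58, SE 0.33, 95% interval -0.21 to 1.38, limma adjusted p = 0.344, exact permutation p = 0.1). Without L20 hen 2 the log2 fold change was 0.22. The laying hens were alike in RBP4, with a coefficient of variation of 5.37% beside 38.2% in the juvenile hens.

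TTR, the thyroid hormone carrier that RBP4 travels with (galGal4 chr2:105824284-105831740, ENSGALG00000015143), was the one carrier gene whose groups overlapped. It had 3197, 1279 and 1991 FPKM in L20 and 3261, 3584 and 989 FPKM in L30. The highest and the lowest of the 6 values were both from laying hens. The mean was 2156 ± 969.6 in L20 and 2611 ± 1414 FPKM in L30 (SD, n = 3 each), with a log2 fold change of 0.17 (SE 0.58, limma adjusted p = 0.883, exact permutation p = 0.8). The 95% interval, -1.24 to 1.57, spans a fold of 0.424 to 2.98, so that a change of the size seen for GC could not be told from none. Without L30 hen 3 the log2 fold change was 0.76 (adjusted p = 0.322), and without L20 hen 2 it was -0.16.

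**Figure D2:**
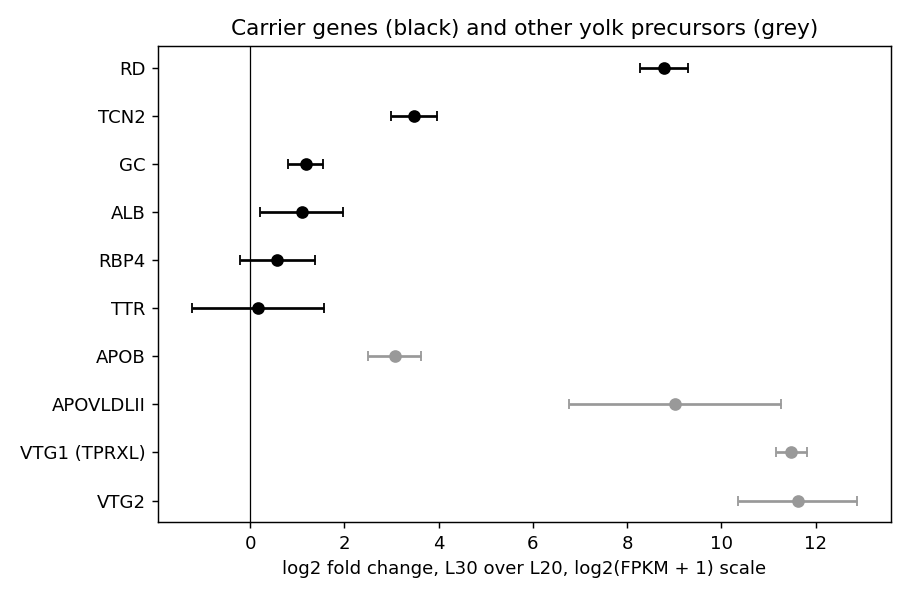
Log2 fold change of each carrier gene (black) and of 4 other yolk precursor genes (grey), L30 over L20 on the log2(FPKM + 1) scale, with points for the limma estimate and bars for its 95% interval. RD is at 8.79 and TCN2 at 3.48, the wide interval of APOVLDLII (estimate 9.01) contains that of RD, and the intervals of RBP4 and TTR include 0.

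The ratios between carriers were also compared within hens, which removes the scaling of each library. Of the 15 pairs among the 6 genes, 11 had ratios that did not overlap between the groups, which held for 31.0% of all pairs of genes tested. Of the 11 pairs 9 contain RD or TCN2, and so restate the rise of these genes. Of the 6 other pairs 2 did not overlap, TTR over ALB and ALB over RBP4, which is near the share of all pairs. The lowest adjusted exact permutation p over the 15 pairs was 0.136, since 0.1 is the lowest that a single pair can reach. The partners RBP4 and TTR gave no such shift: TTR over RBP4 was 1.96, 1.78 and 1.38 in L20 and 1.74, 2.01 and 0.586 in L30 (exact permutation p = 0.7). TTR over ALB was nearly constant in juvenile hens, at 0.287, 0.3003 and 0.296. In laying hens it was lower in each, at 0.247, 0.211 and 0.0708, with hen 3 far below the others. ALB over RBP4 was 6.82, 5.94 and 4.68 in L20 and 7.02, 9.51 and 8.28 in L30. The adjusted exact permutation p was 0.136 for either pair.

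Set beside the yolk precursors, RD and TCN2 stood at different distances. The log2 fold changes of the vitellogenin genes VTG1 (named TPRXL in the table) and VTG2 were 11.48 and 11.62, and those of the lipoprotein genes APOVLDLII and APOB were 9.01 and 3.07. These 4 genes were SDE genes, with an adjusted p of 0.0564 for APOVLDLII when L30 hen 2 was left out. Single juvenile hens weighed on these folds: the ratio of mean FPKM for APOVLDLII was 335, and 593 without L20 hen 1, and that for VTG2 was 3258, and 7632 without L20 hen 1. By that ratio over all 6 hens the order was not that of the log2 fold changes. VTG1, at 7851, was above VTG2, and RD, at 646, was above APOVLDLII. In L20 VTG1 had only 0.535, 0.710 and 0.466 FPKM, a level at which log2(FPKM + 1) makes changes come out too small. Over the 21 alternatives its log2 fold change reached 12.97, and that of VTG2 reached 12.23. That of RD was 9.33 with a pseudocount of 0.1 and 9.40 with 0.01. Left out one at a time, the hens gave log2 fold changes of 7.90 to 9.79 for APOVLDLII. In laying hens RD was at 0.117, 0.0884 and 0.114 of the FPKM of VTG2 in hens 1, 2 and 3, and at 0.309, 0.265 and 0.308 of that of VTG1. TCN2 was at 0.0260, 0.0220 and 0.0240 of that of VTG2. These ratios to the vitellogenins varied little from one laying hen to another.

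As a share of the library the carriers took more reads in laying hens. The 6 genes together held 9.35%, 3.21% and 5.60% of the recovered reads on genes in L20, and 9.60%, 10.6% and 9.55% in L30. The groups did not overlap, though L20 hen 1 was near the laying hens. The means were 6.05% ± 3.09 and 9.92% ± 0.598 (SD, n = 3 each), a difference of 3.87 percentage points (exact permutation p = 0.1), and 2.45 without L20 hen 2. ALB supplied most of this, at 5.55% ± 2.95 in L20 and 8.94% ± 0.614 in L30. The other 5 genes went from 0.504% ± 0.150 to 0.979% ± 0.0797, and RD alone from 0.000326% to 0.170%. FPKM and reads set ALB at different distances from GC. In L30 hen 1 ALB had 13188 FPKM on 1841599 reads, and GC had 3170 FPKM on 108970 reads. Read shares are not per length and depend on the rest of the library: APOVLDLII, VTG2 and VTG1 held 0.0141% of the reads in L20 and 15.6% in L30. Outside these genes and the mitochondrial chromosome the carriers held 6.51% and 12.8%.

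**Figure D3:**
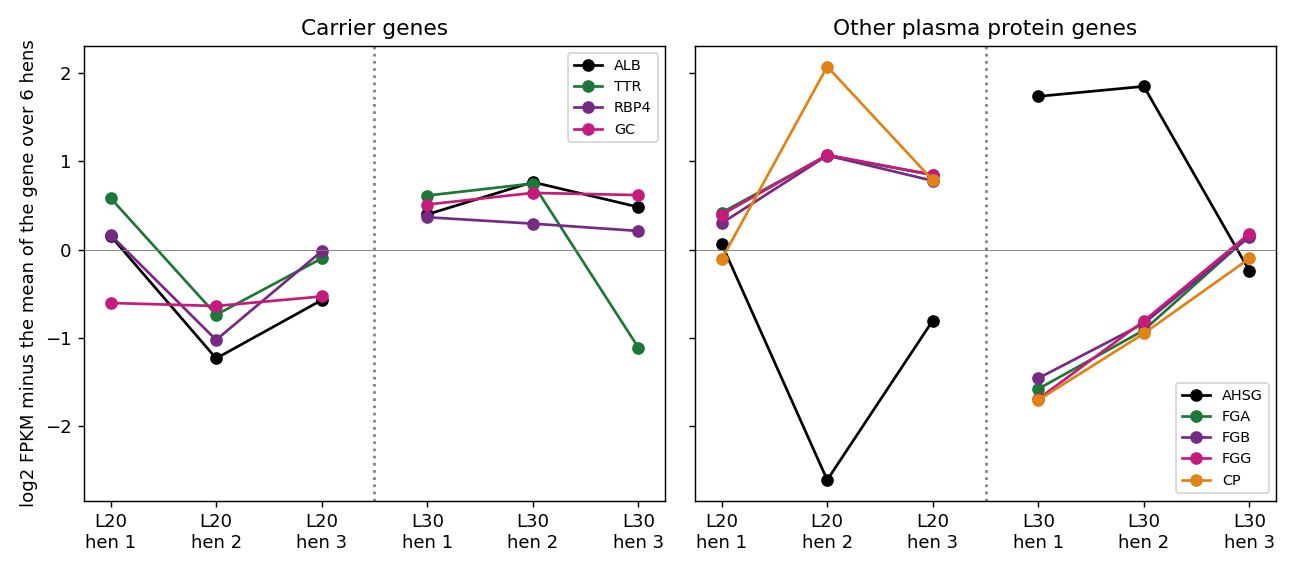
Log2 FPKM in each hen minus the mean of that gene over the 6 hens, for 4 carrier genes (left) and 5 other plasma protein genes (right), with lines that only join the hens of a group. In juvenile hens all 4 carrier genes shown are lowest in hen 2, GC by little. The fibrinogen genes FGA, FGB and FGG and the ceruloplasmin gene CP are highest there. In laying hens TTR and AHSG are lowest in hen 3. RD and TCN2 are not drawn.

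The spread among juvenile hens had a shape that several genes shared. ALB, TTR and RBP4 were each highest in L20 hen 1, then hen 3, then hen 2, with a highest over lowest ratio of 2.28 in RBP4 and 2.62 in ALB. RD, TCN2 and GC were also lowest in hen 2, but highest in hen 3. For these genes that ratio was 2.06, 1.58 and 1.08 in turn. Over 3 hens such an order is a description only. AHSG, the gene of the plasma glycoprotein fetuin, had the order of ALB at 459, 71.9 and 251 FPKM in L20. Like TTR, AHSG was lowest in L30 hen 3 (1459, 1579 and 371 FPKM in L30). The fibrinogen genes had the opposite order in juvenile hens, with FGB at 11457, 19489 and 15984 FPKM in hens 1, 2 and 3, and were highest among the laying hens in hen 3 (3393, 5217 and 10295 FPKM). CP, which encodes the copper carrier ceruloplasmin, followed fibrinogen with 332, 1507 and 618 FPKM in L20 and 110, 186 and 334 FPKM in L30. APOH and AMBP had the juvenile order of ALB, with a highest over lowest ratio of only 1.11 and 1.02. APOA1 and FETUB had the juvenile order of RD, and HPX was highest in L20 hen 3, then hen 2, then hen 1. The part of these hen differences in the results for the carriers was not tested. AHSG, CP, APOH, AMBP, APOA1 and FETUB were chosen after their values were seen.

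Other plasma proteins made by the liver, taken as a list of carriers that also holds the clotting proteins FGA, FGB and FGG, went both ways. Of 10 such genes tested none was an SDE gene in limma or in edgeR, 1 was a DE gene higher in laying hens (AHSG) and 6 were DE genes lower, beside 11.0% and 11.7% of all genes. The 6 were the fibrinogen genes, CP, HPX and APOA1, a lipoprotein gene. The median log2 fold change of the list was -1.40 beside -0.04 over all genes tested. HPX, the heme carrier hemopexin, had 9306, 15967 and 17201 FPKM in L20 and 3969, 6518 and 5674 FPKM in L30 (limma adjusted p = 0.0748). FGB had an adjusted p of 0.128. DESeq2 on recovered reads called 1 of the 10 higher and 6 lower by the SDE rule, beside 3.74% and 2.49% of all genes, HPX (adjusted p = 0.000473) and FGB (adjusted p = 0.0163) among the lower.

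Genes that take up, convert or use vitamins and thyroid hormone were described next to the carriers. In 7 lists on riboflavin, cobalamin, retinol, vitamin D, thyroid hormone, biotin, and vitamin E, thiamin and folate, 35 genes other than the carriers were tested. Of these 2 were SDE genes higher in laying hens and 0 were SDE genes lower, while 7 were DE genes higher and 2 lower at an unadjusted p. By the SDE rule edgeR called 3 higher and 1 lower of 39 genes, beside 2.63% and 1.21% of all genes. DESeq2 called 3 higher and 2 lower of 44, beside 3.74% and 2.49%. The median log2 fold change of the 35 genes was 0.09. The shares of all genes given above for the same rules were 1.82%, 0.935%, 11.0% and 11.7%.

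**Figure D4:**
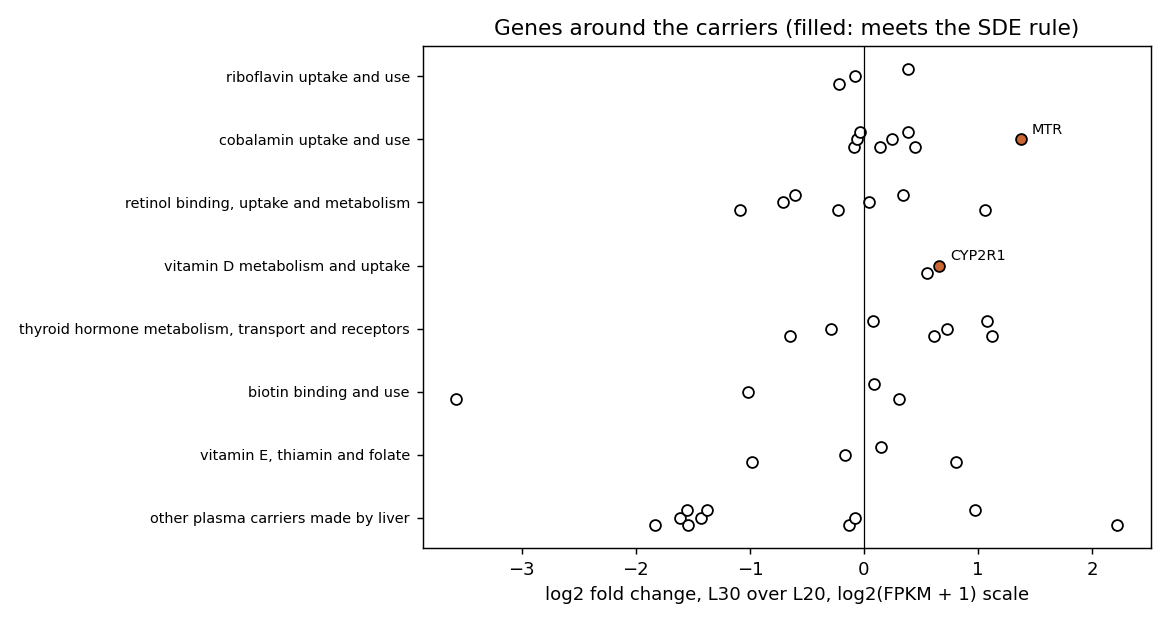
Log2 fold change of each tested gene around the carriers, L30 over L20 on the log2(FPKM + 1) scale, with a row for each list and points spread vertically for legibility. Filled points are the 2 SDE genes, MTR at 1.37 and CYP2R1 at 0.66, and 8 of the 10 other plasma carriers lie below 0.

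Riboflavin uptake and conversion to its coenzymes showed no DE gene among the 3 tested in the main limma fit, edgeR with TMM or DESeq2. SLC52A3, a riboflavin transporter, had 4.57, 4.67 and 6.92 FPKM in L20 and 6.17, 5.39 and 3.60 in L30. FLAD1, which makes the coenzyme FAD, had 3.89, 3.79 and 2.70 FPKM in L20 and 4.79, 5.79 and 3.89 in L30. Both sets of values overlapped between the groups, with limma adjusted p of 0.847 and 0.252. FLAD1 was near the DE threshold, with an unadjusted p of 0.0684 in limma, 0.0504 in edgeR with TMM and 0.0507 in DESeq2. It met the DE rule in some alternatives, among them edgeR with no filter (unadjusted p = 0.0481). Limma scaled to the reads outside yolk and mitochondrial genes, which raises every laying hen against the juvenile hens, gave an unadjusted p of 0.0155. The adjusted p of FLAD1 was 0.0924 or more in each alternative that tested it. The limma log2 fold change was 0.38 for FLAD1 (95% interval -0.04 to 0.80) and -0.08 for SLC52A3 (95% interval -0.61 to 0.45). With 3 hens a group, a rise within these intervals could not be told from none for either gene.

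In the cobalamin list 2 of 8 tested genes were DE genes, both higher, beside 11.0% of all genes. MTR, the methionine synthase that uses vitamin B12, had 10.6, 5.41 and 8.19 FPKM in L20 and 22.2, 25.8 and 18.2 in L30, with no overlap. Its log2 fold change was 1.37 (SE 0.25, limma adjusted p = 0.0451), near the threshold: the adjusted p ranged from 0.0460 to 0.150 when single hens were left out, and it was above 0.05 in 4 of these 6 cases. MUT, the other cobalamin-dependent enzyme, had 18.7, 20.0 and 14.7 FPKM in L20 and 28.0, 22.9 and 19.8 in L30 (adjusted p = 0.270). MMADHC, which routes cobalamin inside the cell, overlapped at 18.4, 20.0 and 19.5 against 16.0, 23.3 and 26.2 FPKM (adjusted p = 0.694).

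Around the retinol carrier, 2 of 7 tested genes were DE genes higher and 1 lower, beside 11.0% and 11.7% of all genes. RBP5, which in mammals binds retinol inside cells, had 40.7, 57.9 and 63.7 FPKM in L20 and 28.4, 20.6 and 25.1 in L30. All laying hens were below all juvenile hens, and the limma adjusted p of 0.0518 (log2 fold change -1.09, SE 0.21) just missed the threshold. RBP5 passed it in edgeR on recovered reads (adjusted p = 0.0343), and in 11 of 21 alternatives. Without single hens its limma adjusted p was 0.0456 to 0.169. ALDH1A1, which oxidises retinal to retinoic acid, had 35.4, 13.2 and 30.0 FPKM in L20 and 56.6, 61.5 and 39.0 in L30 (adjusted p = 0.178).

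The vitamin D list held 2 genes above the FPKM minimum. CYP2R1, a vitamin D 25-hydroxylase, rose from 0.814, 0.729 and 0.562 FPKM in L20 to 1.83, 1.70 and 1.52 in L30, a ratio of 2.40 (log2 fold change 0.66, SE 0.12, limma adjusted p = 0.0469). Its level is low, and its adjusted p was above 0.05 whenever a hen was left out, from 0.0617 to 0.165. CYP27A1, a mitochondrial hydroxylase of vitamin D and of cholesterol side chains, had 113, 51.02 and 73.5 FPKM in L20 and 153, 102 and 87.8 in L30 (adjusted p = 0.379). The vitamin D receptor VDR was under the FPKM minimum at 1.17, 0.869 and 1.01 in L20 and 0.734, 0.310 and 0.343 in L30.

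In the thyroid hormone list 2 of 7 tested genes were DE genes, both higher, beside 11.0% of all genes. DIO2, a deiodinase that makes the active hormone, had 19.5, 23.9 and 6.03 FPKM in L20 and 114, 90.8 and 2.25 in L30, with L30 hen 3 the lowest of the 6 (adjusted p = 0.684). The log2 fold change of DIO2 was 1.08, and 2.74 without L30 hen 3. DIO1, the liver deiodinase, was picked after its values were seen. It was higher in each laying hen at 22.3, 12.1 and 14.2 against 37.9, 39.2 and 29.3 FPKM (limma adjusted p = 0.0658, and 0.0494 in edgeR on recovered reads). DIO1 passed 0.05 in 5 of 21 alternatives, with a limma adjusted p of 0.0439 to 0.201 without single hens.

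Among the 8 genes tested for biotin, vitamin E, thiamin and folate none met the SDE rule in limma. There 1 was a DE gene lower, beside 11.7% of all genes. In edgeR none of 9 met the SDE rule and in DESeq2 1 of 9 did, in the lower direction, beside 2.49% of all genes. That gene was AVD (DESeq2 log2 fold change -6.35, adjusted p = 0.0106), which encodes avidin, a biotin-binding protein of egg white. AVD was uneven between juvenile hens at 61.7, 0.081 and 245 FPKM in L20, and was 0.941, 0.612 and 2.12 FPKM in L30. Its limma adjusted p was 0.311, and 0.0306 without L20 hen 2. SLC5A6, which transports biotin and pantothenate, was lower in each laying hen at 80.1, 57.1 and 83.8 against 27.3, 34.3 and 47.5 FPKM (adjusted p = 0.0822). TTPA, the transfer protein of vitamin E, had 85.0, 81.1 and 70.0 FPKM in L20 and 121, 243 and 88.9 in L30 (adjusted p = 0.249). SLC46A1, a folate transporter, overlapped at 6.67, 3.48 and 4.17 against 3.48, 3.49 and 5.22 FPKM (adjusted p = 0.715).

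The genes whose profile over the 6 hens was nearest to each carrier were found by the root mean square difference of centred log2(FPKM + 1) among 8860 named genes. For RD these were APOVLDLII (0.97), VTG1 (1.38), MBOAT2 (1.55), VTG2 (1.56) and PDE11A (1.88), beside a median of 4.42 over all named genes. For TCN2 they were REEP6 (0.22), MFGE8 (0.25), APOB (0.26), WFDC2 (0.27) and PAQR7 (0.31), beside a median of 1.78. This measure keeps the difference between the groups, so that the nearest genes of RD and TCN2 are mostly those of similar fold change.

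For GC the nearest were HIBADH and HDGFRP3 (0.08 each), and DPYD, BCKDHB and PPFIBP1 (0.12 each), beside a median of 0.64. For ALB they were GART and NADK2 (0.15 each), and NME4, RAD51B and DCXR (0.17 each), beside 0.74. None of the yolk precursor genes was among the nearest 5 of GC or ALB. Their larger fold changes alone set them apart, since the measure keeps the difference between the groups. For RBP4 they were AGPAT3 (0.08), TOB and TRHDE (0.11 each), ESRP2 (0.13) and KMO (0.14), beside 0.54, and for TTR they were NELF (0.22), TNNC1 (0.25), CPEB2 (0.28), TP53INP2 (0.29) and VPS37D (0.31), beside 0.76.

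Markers of the cells in a piece of liver also differed between the groups. In bulk RNA fewer cells of a type and less RNA per cell cannot be told apart. Summed over 11 hepatocyte markers, of which only CPS1 was under 1 FPKM in every hen, the level was 33671 to 45837 FPKM in L20 and 11310 to 25119 in L30. Of this sum 70.8% to 96.8% came from 4 plasma protein genes, FGA, FGB, FGG and APOA1, which were the 4 DE genes lower. The sum of the other 7 markers went the other way, from 2040, 1487 and 1817 FPKM in L20 to 3299, 4025 and 2119 in L30. Most of that rise came from AHSG (mean 261 to 1136 FPKM) and TAT (mean 199 to 675 FPKM). AHSG, TAT and HNF4A (mean 8.07 to 13.8 FPKM) were the 3 DE genes higher among 10 markers tested. The shares of all genes were 11.0% higher and 11.7% lower. APOH, F2, SERPINC1 and CPS1 overlapped between the groups, as did AHSG. These single markers were picked after their values were seen. The sums of 5 macrophage markers (397 to 583 in L20, 228 to 287 in L30) and of 7 lymphocyte markers (43.4 to 45.1 in L20, 25.7 to 29.3 in L30) were lower in every laying hen. So was that of 5 endothelial markers (76.5 to 94.5 against 37.7 to 66.5), which overlapped after scaling to the reads outside yolk and mitochondrial genes. That scaling raises every laying hen against the juvenile hens. The sums of stellate, erythroid and cholangiocyte markers overlapped, and the 1 oviduct marker found, PGR, was at most 0.385 FPKM. Of the 5 stellate markers 2 were DE genes lower in laying hens, COL3A1 and COL1A2, beside 11.7% of all genes. The exocrine pancreas gene AMY2A ran the other way, at 3.59, 2.96 and 3.13 FPKM in L20 and 4.41, 6.70 and 4.56 in L30, higher in every laying hen (limma adjusted p = 0.125). CELA1, another pancreas gene, was at 0 in all hens but L30 hen 1 (0.118 FPKM). The part of these differences in the carrier results was not tested.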

How the data were processed

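RNA-Seq of liver was analysed in 6 hens, 3 of L20 and 3 of L30, grouped by the sample titles. According to the methods and the submitters' processing notes (CASAVA 1.8.2, TopHat2 2.0.9, Cuffdiff), reads were cleaned, mapped to galGal4 and quantified per gene with Cufflinks. The authors deposited FPKM values and a count per gene divided by 1 factor per library. This deposited count is thus a signal and not a whole number. Beyond the length of the exon model, the FPKM followed that same factor from library to library, and not the total of reads on genes. Library strandedness is not given in the sources used here. No other gene of the table overlaps a carrier gene. In each library at least 99.85% of the scaled counts below 20 reads lay within 0.02 of a whole number of reads, and division by the worth of 1 read gave recovered reads. In 3 libraries 1 or 2 values lay below it.

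The main test was limma 3.58.1 with trend (R 4.3.3) on log2(FPKM + 1), fitted over all genes whose mean FPKM was 1 or more. The carrier genes and lists were chosen with earlier results of these data known. The genes named are the carriers, each list gene that met the SDE rule, the 2 most abundant others of a list and the 5 nearest profiles of each carrier. Genes outside this rule are said to be so. Some genes that the rule takes in, and part of a marker list, are not reported here. Lists were described by counts and medians, and no list was tested. Exact permutation tests enumerated all regroupings of the hens, and tables were handled with pandas 2.3.3 and numpy 2.4.6 in Python 3.11.15. Alternatives changed the pseudocount (0.1 or 0.01), filter (none, or FPKM of at least 5), scaling, replicate block and eBayes options, left out each hen, or used edgeR 4.0.16 (main test for counts, here an alternative since the table holds no whole counts) and DESeq2 1.42.0 on recovered reads. The fits were tested on simulated data with known changes. Symbols of the carriers were matched to the RefSeq gene table of GRCg7b, whose coordinates were not used.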

Additional observations from a re-analysis of the deposited data

How the results depend on the processing

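RD and TCN2 stayed past the threshold under all 21 alternatives, with log2 fold changes of 8.58 to 9.40 and 3.28 to 3.74. GC kept its direction and stayed past it in 14 of 21, but with no filter on FPKM its adjusted p was 0.0663 at a log2 fold change of 1.18, and its log2 fold change without single hens was 1.15 to 1.22. With the replicate block GC had the same log2 fold change of 1.18 and an adjusted p of 0.0888. The values of GC were the same in the main fit, with no filter and with the block. The fitted model differed, and with no filter the genes tested also numbered 14078 in place of 9732. Its unadjusted limma p was 0.000195, 0.00170 and 0.00192 in turn. The cause of the other changes was not tested. ALB passed with DESeq2 alone (log2 fold change 1.03, adjusted p = 0.0407). RBP4 passed under none, with 0.22 to 0.84. TTR ranged from -0.16 to 0.76 when single hens were left out, and was below 0 without L20 hen 2 (-0.16), L30 hen 1 (-0.10) or L30 hen 2 (-0.16). The carriers meeting the SDE rule numbered 3, 2 to 3 without single hens, 2 with the block or with no filter on FPKM, and 4 with DESeq2.

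SLC52A3 (-0.083) changed sign with scaling to the reads outside yolk and mitochondrial genes (0.136), with edgeR (0.0479 with TMM, 0.0341 with DESeq2 size factors, 0.0468 with no filter) and with DESeq2 (0.0377), and ranged from -0.217 to 0.103 without single hens. SLC46A1 changed sign with that scaling (0.0432) and ranged from -0.331 to 0.0568 without single hens. The scaling raises every laying hen against the juvenile hens, as described below.

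Over all genes the SDE genes numbered 268 (177 higher, 91 lower). They numbered 54 with the replicate block, 429 with edgeR, 878 with DESeq2, and 64 to 385 without single hens. With scaling to the reads outside yolk and mitochondrial genes they numbered 492 (420 higher, 72 lower), and the median log2 fold change moved from -0.04 to 0.18. That scaling multiplied the FPKM by 0.911 to 0.917 in L20 and by 1.07 to 1.11 in L30. It came on top of the factor per library that the deposited FPKM already followed, and raised every laying hen against every juvenile hen. Before it, the median-ratio factors of the FPKM were 0.981 to 1.04. The labels do not say whether replicate numbers pair the hens. Deviations from the group means correlated at 0.02, 0.01 and 0.09 for hens with the same number. For hens with different numbers they correlated at -0.07 to 0.06. With 3 hens a group these values cannot decide whether the hens are paired. Depth limits RD in juvenile hens, which rests on 38 to 68 reads.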
